A study of Canis lupus familiaris with 6 samples.

Results

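Transcripts of the glutathione, peroxiredoxin and NRF2 antioxidant genes were compared between flat and cyst-forming kidney epithelial cells. The genes were taken by symbol: a probe set (a group of short array probes for 1 transcript) was included when its single annotated symbol was that of a glutathione S-transferase, glutathione peroxidase, peroxiredoxin, thioredoxin reductase, glutaredoxin, superoxide dismutase, haem oxygenase or metallothionein, an enzyme of glutathione synthesis or recycling, NQO1, or the regulators NFE2L2 and KEAP1. This gave 85 of 42924 probe sets, standing for 40 of 15115 named genes. Of these genes, 12 had 1 probe set and 28 had several.

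The cells were MDCKII, an established line of Madin-Darby canine kidney epithelium. In the 2D group (3 arrays) they grew as a monolayer on plastic without Matrigel, a basement membrane extract. In the 3D group (3 arrays) they were plated on a thin Matrigel layer of 100 µl in a 60 mm dish, under medium holding 2% Matrigel, where they form cysts. RNA of all 6 cultures was taken 36 h after plating, and the labels call the replicates biological; no other treatment or genotype is given for either group. The study asked which genes are raised when cells build a lumen in matrix.

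Glutathione is a small thiol made from glutamate, cysteine and glycine. Cells use it to reduce peroxides, through glutathione peroxidases, and to tag electrophiles, through glutathione S-transferases; glutathione reductase restores it with NADPH. Peroxiredoxins do a parallel job with electrons from thioredoxin. NRF2, encoded by NFE2L2, is the transcription factor that drives many of these genes once its inhibitor KEAP1 lets go of it, and proximal tubule cells of the kidney are rich in enzymes of glutathione use.

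The deposited values are log2 levels, and they lie on 2 scales. The arrays of replicates 2 and 3 had medians of 7.06 to 7.08, and the replicate 1 arrays had medians of 5.42 (2D) and 5.26 (3D) with some values below 0. Tests therefore used replicates 2 and 3 (n = 2 arrays per group), with limma's moderated test adjusted over all 42924 probe sets, and the replicate 1 pair is given as a single untested difference. A probe set passed at an adjusted p under 0.05. Where a gene had several probe sets, the one with the highest mean over all arrays represents it. When 2D replicate 2 or 3, or 3D replicate 2 or 3, was dropped in turn, 0 probe sets passed in the whole table; such a fit has 1 residual degree of freedom and does not tell stable from unstable calls. The log2 fold changes then ran from 1.865 to 2.385 for GPX2, 1.075 to 1.385 for NQO1, 0.92 to 1.08 for MGST2, 0.515 to 0.795 for GSTK1 and 0.525 to 0.625 for GSS. The epithelial markers CDH1, EPCAM, KRT8, KRT18, CDH16, PAX8 and CLDN4 lay above the arrays' lower quartiles. This does not set them apart from the markers of other cell types. Only 2 of 7 fibroblast, 2 of 5 endothelial and 2 of 6 leukocyte markers lay below the lower quartile on all arrays of replicates 2 and 3. None of these 7 epithelial or of the 7 fibroblast, 5 endothelial and 6 leukocyte markers passed. Poly-A spike-in controls, added to the RNA before labelling, averaged 8.81 and 8.86 in 2D but 9.83 and 8.98 in 3D replicates 2 and 3. Hybridization spike-ins, added after labelling, averaged 10.79 and 10.86 in 2D and 11.16 and 11.03 in 3D. The 3' minus 5' gap, a sign of RNA integrity, was -0.07 and -0.02 in 2D and 0.10 and 0.32 in 3D for the first actin pair, and 0.20 and 0.16 against 0.31 and 0.40 for the second GAPDH pair; the second actin pair (0.71 and 0.89 against 0.57 and 0.76) and the first GAPDH pair (0.14 and 0.13 against 0.16 and 0.12) overlapped. In replicate 1 the poly-A controls averaged 7.66 in 2D and 8.49 in 3D, and the hybridization controls 10.98 and 11.02. The actin gaps there were -0.29 in 2D and -0.08 in 3D for the first pair and 2.17 and 2.9 for the second. For GAPDH they were 0.52 and 0.5 for the first pair and 1.67 and 1.47 for the second. The part of these control differences in the results was not tested. Since these are bulk samples, a level shared by all cells and a change in the share of cells that carry the transcript cannot be told apart.

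A small set of detoxifying enzymes passed as higher in 3D, led by the peroxidase GPX2, the quinone reductase NQO1 and the microsomal transferase MGST2. No member passed as lower. The members were chosen with earlier results of these data known, so the shares given here are a description. Of the 85 probe sets 11 passed as higher (12.9%, against 3.65% of all probe sets) and 0 as lower (against 2.96%). The 11 belong to 7 genes: GPX2, NQO1, MGST2, MGST1, GSTK1, GSS and PRDX2. On the representing probe sets 5 of 40 genes passed as higher (12.5%, against 4.2% of all genes) and 0 as lower (against 3.09%). At an unadjusted p under 0.05, 12 of the 40 genes were higher and 4 lower, where 25.2% of all genes were at that level in either direction. The median log2 difference of the 40 genes was 0.13, beside -0.01 over all genes, and the median replicate 1 difference was 0.43, beside -0.11. In 20 of the 40 genes both 3D arrays lay above both 2D arrays (50%, against 25.8% of all genes), and in 8 both lay below (20.0%, against 27.4%). By probe set these counts were 39 (45.9%, against 25.1%) and 17 (20.0%, against 26.7%). The plot of levels shows the 11 probe sets array by array.

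**Figure D1:**
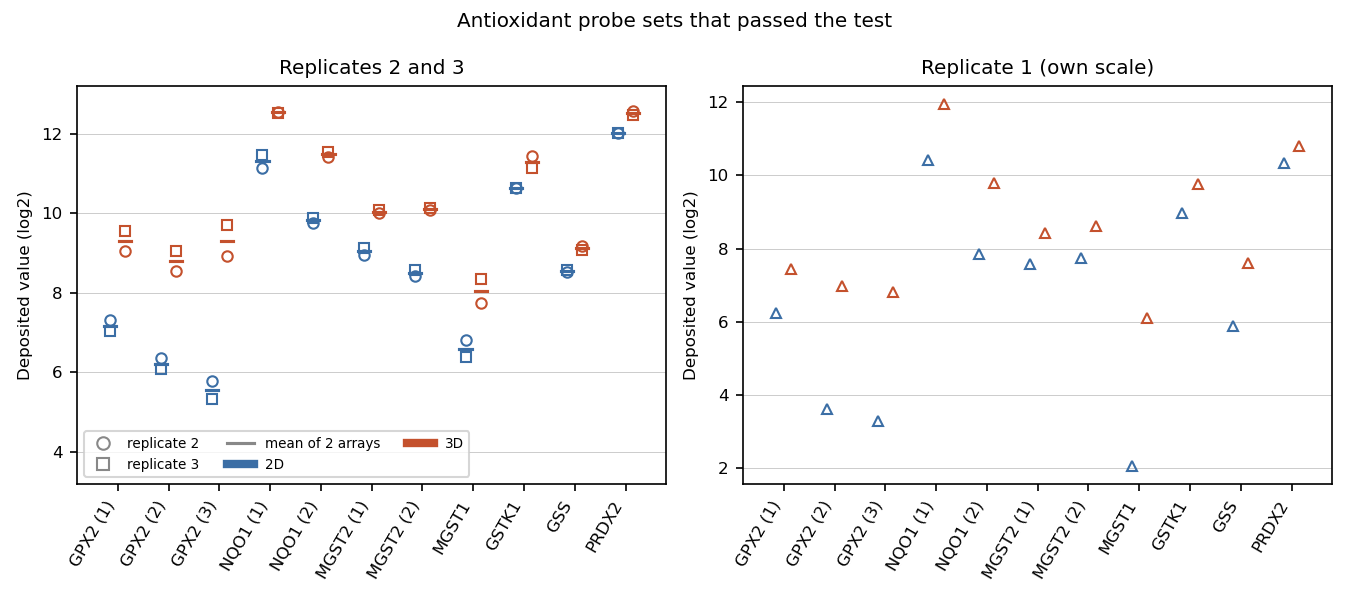
Deposited log2 values of the 11 probe sets that passed, for replicates 2 and 3 (left, circles and squares, with bars at the mean of 2 arrays) and for replicate 1 on its own scale (right), in 2D (blue) and 3D (red). In every one of these probe sets the 3D arrays lie above the 2D arrays of the same scale; numbers in brackets tell probe sets of the same gene apart, the representing one first where it passed.

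GPX2, the glutathione peroxidase typical of gut and other epithelia, had the largest rise among the genes that passed. On its representing probe set the 2D arrays read 7.32 and 7.03 and the 3D arrays 9.04 and 9.56. The groups were far apart compared with the spread inside each, giving a 4.36-fold rise (log2 fold change 2.125, SE 0.196, n = 2 per group; limma adjusted p = 0.00858). The other 2 GPX2 probe sets also rose, 5.96-fold from 6.36 and 6.08 to 8.54 and 9.05, and 13.5-fold from 5.79 and 5.34 to 8.93 and 9.70. The 5.34 lies below that array's lower quartile of 5.66, where signal is close to background, so the size of the last rise is uncertain. On all 3 probe sets 3D replicate 3 was the higher of the 3D arrays. In replicate 1 GPX2 was higher in 3D by 1.21, 3.36 and 3.53; for the last, the 2D value of 3.28 lay below that array's lower quartile of 3.52.

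None of the other glutathione peroxidases passed, and the difference between them and GPX2 was not tested. GPX1, the ubiquitous cytosolic form, read 13.28 and 13.25 in 2D and 13.75 and 13.41 in 3D, without overlap, and none of its 3 probe sets passed (0.315, SE 0.137, limma adjusted p = 0.24 on the first; 0.41 and 0.385, limma adjusted p = 0.0874 and 0.157, on the others). On each of the 3 both 3D arrays lay above both 2D arrays. Its replicate 1 differences, 1.28 to 1.48, had the same sign. GPX8, a peroxidase of the endoplasmic reticulum that takes part in oxidative protein folding, read 13.87 and 13.80 in 2D and 13.21 and 13.48 in 3D. Both 3D arrays were thus lower, but the difference of -0.49 did not pass (SE 0.125, limma adjusted p = 0.077), a second probe set gave -0.46, and replicate 1 gave 0.38 and 0.34. GPX3, the secreted plasma form made by the kidney, differed by 0.075 with a 95% interval of -0.19 to 0.34. GPX7 (0.185) and GPX5 (-0.015) did not pass either. Of the 6 glutathione peroxidase genes, 1 passed as higher and 0 as lower (against 4.2% and 3.09% of all genes). At an unadjusted p under 0.05 there was 1 in each direction (against 25.2% of all genes in either).

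NQO1, which reduces quinones with NADH or NADPH and is the standard readout of NRF2 activity, rose on 2 of its 3 probe sets. On the representing probe set the levels were 11.15 and 11.46 in 2D and 12.54 and 12.53 in 3D, a 2.35-fold rise (log2 fold change 1.23, SE 0.131, limma adjusted p = 0.0112). The second went from 9.76 and 9.88 to 11.42 and 11.55, or 3.17-fold (limma adjusted p = 0.00445). In both, the 3D arrays lay close together and at least 1 log2 unit above the nearer 2D array. The third probe set, at 6.26 and 6.32 against 6.35 and 6.49, did not pass (0.13). Replicate 1 differences were 1.53, 1.94 and 0.93.

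The regulators and the haem oxygenases grouped with NQO1 did not pass. NFE2L2, which encodes NRF2 itself, read 11.90 and 12.10 in 2D and 11.53 and 11.73 in 3D. Both 3D arrays lay below both 2D arrays, and the difference of -0.37 had a 95% interval of -0.68 to -0.06 and a limma adjusted p = 0.147. A second NFE2L2 probe set gave -0.445 and another, of low level, -0.02; replicate 1 gave -0.40, -0.32 and -2.51. KEAP1, the adaptor that sends NRF2 for degradation, read 9.62 and 9.65 against 9.85 and 9.47, with overlapping groups (0.025, 95% interval -0.33 to 0.38). HMOX1, the inducible haem oxygenase, overlapped as well, at 6.93 and 6.73 against 6.73 and 6.80 (-0.065, 95% interval -0.34 to 0.21), whereas replicate 1 gave 1.27. HMOX2, the constitutive form, differed by 0.115 and by -0.02 on its second probe set.

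Glutathione S-transferases, which conjugate glutathione to electrophiles, had 2 of 7 genes that passed as higher, MGST2 and GSTK1, and 0 as lower (against 4.2% and 3.09% of all genes). All 7 had a log2 difference above 0 (median 0.42, against 47.7% of all genes above 0 and a median of -0.01), and in 6 both 3D arrays lay above both 2D arrays (against 25.8% of all genes). By probe set, 4 of 17 passed as higher and 0 as lower (against 3.65% and 2.96% of all probe sets), and at an unadjusted p under 0.05 there were 12 higher and 0 lower (against 23.5% of all probe sets in either direction). In replicate 1 the representing probe sets of 4 genes were higher in 3D and those of 3 lower.

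MGST2, a membrane-bound transferase that also makes leukotriene C4, read 8.96 and 9.12 in 2D and 10.00 and 10.08 in 3D on its representing probe set. This was a 2.0-fold rise (log2 fold change 1.0, SE 0.109, limma adjusted p = 0.0115), and the second probe set rose 3.05-fold, from 8.42 and 8.57 to 10.08 and 10.13. Replicate 1 differences of 0.86 and 0.87 had the same sign. GSTK1, the mitochondrial and peroxisomal kappa-class enzyme, rose 1.57-fold, from 10.63 and 10.64 to 11.43 and 11.15 (SE of the log2 value 0.126, limma adjusted p = 0.0386). Its second probe set of similar level gave 0.56 (limma adjusted p = 0.0685) and another, of low level, -0.095. As the mean of its probe sets GSTK1 did not pass (0.373, limma adjusted p = 0.0804).

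MGST1, the microsomal transferase and peroxidase of endoplasmic reticulum and mitochondria, depended on the probe set. The representing one went from 8.63 and 8.61 to 8.90 and 8.92 and did not pass (0.29, limma adjusted p = 0.14), with a replicate 1 difference of -0.29. Another rose 2.72-fold, from 6.82 and 6.38 to 7.75 and 8.34 (limma adjusted p = 0.0256), and was higher by 4.04 in replicate 1, where its 2D value of 2.07 lay below the array's lower quartile of 3.52. All 3 MGST1 probe sets had both 3D arrays above both 2D arrays, and their mean passed (0.715, SE 0.116, limma adjusted p = 0.024).

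GSTA4, which detoxifies the lipid aldehyde 4-hydroxynonenal, read 11.28 and 11.39 in 2D and 11.72 and 11.84 in 3D, a clear gap that did not pass (0.445, SE 0.107, limma adjusted p = 0.0674; replicate 1 1.43). GSTO1, the omega-class thioltransferase, read 11.99 and 12 against 12.38 and 12.45 (0.42, SE 0.0985, limma adjusted p = 0.0635; replicate 1 0.94). It has 1 probe set and passed when genes were averaged over their probe sets, a fit with fewer tests (limma adjusted p = 0.0447). GSTZ1, which acts in tyrosine breakdown, differed by 0.14, 0.885 and 0.51 on its 3 probe sets, none of which passed; on the last 2, 3D replicate 2 was above 3D replicate 3 by 0.78 and 0.50. The 3 probe sets of GSTO2 differed by -0.03 to 0.08, and 2 of them lay below the lower quartile on all 4 arrays.

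In glutathione synthesis and recycling 1 of 4 genes, GSS, passed as higher and 0 as lower (against 4.2% and 3.09% of all genes). At an unadjusted p under 0.05 there were 2 and 0 (against 25.2% of all genes in either direction). GSS, glutathione synthetase, joins glycine to gamma-glutamylcysteine; its representing probe set read 8.53 and 8.58 in 2D and 9.18 and 9.08 in 3D. This 1.49-fold rise (log2 fold change 0.575, SE 0.102, limma adjusted p = 0.0322) was matched by 0.335 on the second probe set, which did not pass, and by 1.74 and 0.58 in replicate 1. The mean of both probe sets did not pass (0.455, limma adjusted p = 0.06). GCLC, the catalytic subunit of the rate-limiting glutamate-cysteine ligase, read 10.60 and 11.02 in 2D and 10.69 and 11.02 in 3D. The groups overlapped (0.045, 95% interval -0.40 to 0.49), and in both groups replicate 3 was the higher array; replicate 1 gave 1.34. GCLM, its regulatory subunit, read 11.57 and 11.56 against 11.26 and 11.55 (-0.16, 95% interval -0.47 to 0.15). GSR, glutathione reductase, was higher on both 3D arrays, at 8.31 and 8.43 against 9.22 and 8.74, and did not pass (0.61, SE 0.172, limma adjusted p = 0.0959); replicate 1 gave 0.06.

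**Figure D2:**
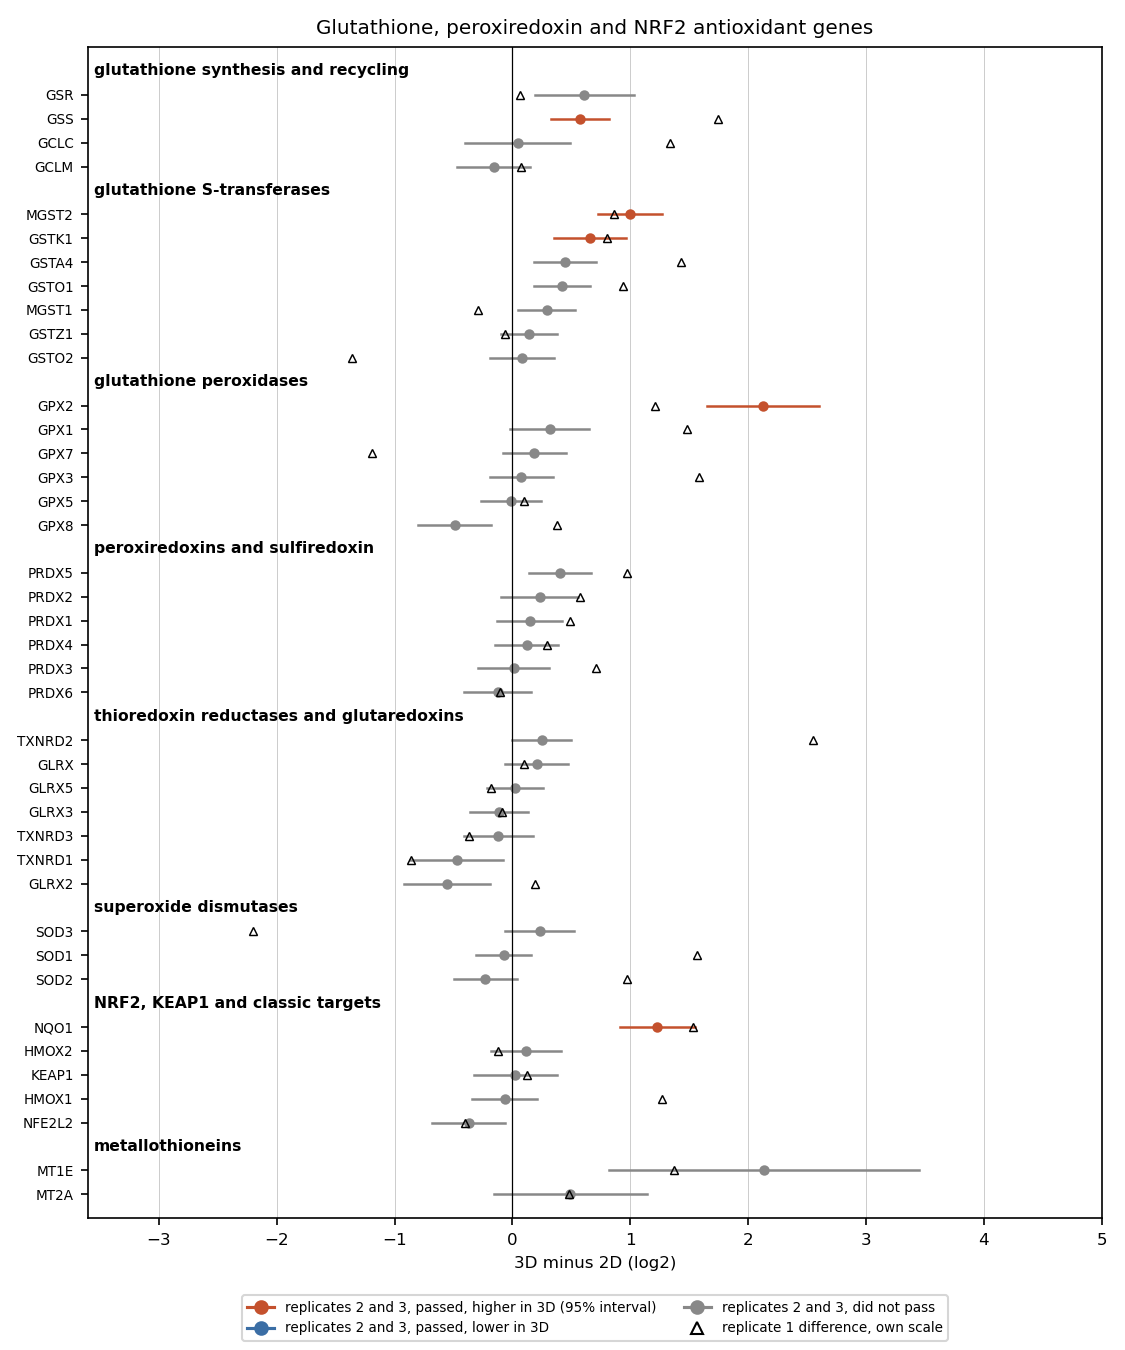
Difference between 3D and 2D (log2) for the representing probe set of each of the 40 genes, grouped by role: dots with 95% intervals from limma for replicates 2 and 3 (red, passed; grey, did not pass), and open triangles for the single replicate 1 difference on its own scale. The 5 red dots, GSS, MGST2, GSTK1, GPX2 and NQO1, lie at 0.575 to 2.125, and all of their triangles lie to the right of 0.

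The peroxiredoxins, thiol peroxidases present at high level in most cells, did not pass on their representing probe sets. Of 6 genes 0 passed there by limma (against 4.2% of all genes as higher and 3.09% as lower). The median difference was 0.132, beside -0.01 over all genes. At an unadjusted p under 0.05, 1 was higher and 0 lower (against 25.2% of all genes in either direction). PRDX1, the main cytosolic form, read 13.65 on both 2D arrays and 13.69 and 13.90 in 3D (0.145, 95% interval -0.13 to 0.42). PRDX6, which reduces phospholipid hydroperoxides with glutathione, read 13.46 and 13.65 against 13.50 and 13.36 (-0.125, 95% interval -0.41 to 0.16). PRDX2, abundant in red cells and also cytosolic, passed on its other probe set, a 1.42-fold rise from 12.01 on both 2D arrays to 12.57 and 12.46 (SE of the log2 value 0.101, limma adjusted p = 0.0435). Its representing probe set, at 12.52 on both 2D arrays and 12.91 and 12.59 in 3D, did not pass (0.23, limma adjusted p = 0.372). PRDX5, the mitochondrial and peroxisomal form, differed by 0.405 (SE 0.11, limma adjusted p = 0.0881) and by 0.115 on its second probe set. PRDX3, the mitochondrial form, was at 0.01. PRDX4, of the secretory pathway, was at 0.12 on its representing probe set but at -0.165 and -0.16 on its others. Those others gave -0.96 and -5.19 in replicate 1. For the last, the 3D value of 0.38 lay below that array's lower quartile of 3.38. In replicate 1 the representing probe sets of 5 of the 6 genes were higher in 3D, by 0.29 to 0.97, and that of PRDX6 differed by -0.11.

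None of the thioredoxin reductases and glutaredoxins passed. By limma 0 of the 19 probe sets of these 7 genes passed (against 3.65% of all probe sets as higher and 2.96% as lower). At an unadjusted p under 0.05, 1 gene was higher and 2 lower (against 25.2% of all genes in either direction). In all, 3 genes were above 0 and 4 below (against 47.7% of all genes above 0). The median difference was -0.115, beside -0.01 over all genes. TXNRD1, the cytosolic reductase of thioredoxin and a well-known NRF2 target, read 10.95 and 11.28 in 2D and 10.48 and 10.80 in 3D (-0.475, SE 0.163, limma adjusted p = 0.15), with -0.86 in replicate 1. Its other 4 probe sets differed by -0.175 to 0.065. GLRX2, the mitochondrial and nuclear glutaredoxin, read 11.48 and 11.45 against 10.71 and 11.11, the lowest difference among the 40 genes (-0.555, SE 0.15, limma adjusted p = 0.0877), but 0.19 in replicate 1. GLRX3, an iron-sulfur chaperone, read 13.41 and 13.35 against 13.23 and 13.30 (-0.115), with -0.33 on its second probe set. GLRX5, which serves iron-sulfur assembly in mitochondria, overlapped, at 12.40 and 12.37 against 12.44 and 12.37. TXNRD2, the mitochondrial reductase, differed by 0.25 on its representing probe set and by -0.045 to 0.04 on the other 3, beside a replicate 1 difference of 2.55. TXNRD3 (-0.12) and GLRX (0.205) did not pass. The other GLRX probe sets gave -0.01 and -0.26 and did not pass either. On the last, both 3D arrays lay below both 2D arrays (95% interval -0.5 to -0.02, limma adjusted p = 0.183).

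Superoxide dismutases, which turn superoxide into hydrogen peroxide, did not pass on any of 7 probe sets. Of all probe sets 3.65% passed as higher and 2.96% as lower. An unadjusted p under 0.05 was found for 0 of the 7 (against 23.5% of all probe sets). SOD1, the copper-zinc enzyme of the cytosol, read 13.07 and 13.06 in 2D and 12.99 on both 3D arrays, a difference of -0.075 with a 95% interval of -0.31 to 0.16. A second probe set read 12.07 and 11.99 against 12.20 and 12.66 (0.40, limma adjusted p = 0.216), so the SOD1 probe sets differed in sign, while replicate 1 gave 1.57 and 1.78 on these. SOD2, the mitochondrial manganese enzyme, differed by -0.23 (95% interval -0.50 to 0.04) and by 0.97 in replicate 1. Its second probe set differed in sign, at 0.125 (95% interval -0.29 to 0.54), with 0.18 in replicate 1. SOD3, the extracellular form, gave 0.23, and -2.20 in replicate 1.

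The metallothioneins, cysteine-rich proteins that bind zinc and copper, varied most between the 2D cultures. MT1E read 9.18 and 11.02 in 2D and 12.33 and 12.14 in 3D. Both 3D arrays were higher than both 2D arrays, but 2D replicate 2 minus 2D replicate 3 was itself -1.84, and the 2.135 difference did not pass (SE 0.54, 95% interval 0.82 to 3.45, limma adjusted p = 0.0752). MT2A read 12.07 and 12.90 against 12.85 and 13.10, with overlapping groups (0.49, SE 0.267, limma adjusted p = 0.341), and again 2D replicate 2 was the low array. Replicate 1 gave 1.37 for MT1E and 0.48 for MT2A. Metallothionein genes are close in sequence, and how far their probe sets tell them apart was not tested. Of these 2 genes 0 passed (against 4.2% of all genes as higher and 3.09% as lower). At an unadjusted p under 0.05, 1 of them was higher (against 25.2% of all genes in either direction).

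The size of a difference often depended on the probe set. Of the 28 genes with several probe sets, 17 had all of them on the same side of 0 and 11 had them on both sides. The spread was widest for GPX2 (2.125 to 3.75), NQO1 (0.13 to 1.665) and MGST1 (0.29 to 1.445), in which every probe set was above 0. When a gene was taken as the mean of its probe sets, 5 member genes again passed as higher and 0 as lower. They were GPX2 (2.817), MGST2 (1.305), NQO1 (1.008), MGST1 (0.715) and GSTO1 (0.42), so that 3 were shared with the representing probe sets. At the threshold, PRDX2 passed with a limma adjusted p = 0.0435, and GSTO1 (0.0635) and GSTA4 (0.0674) were the nearest that did not.

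**Figure D3:**
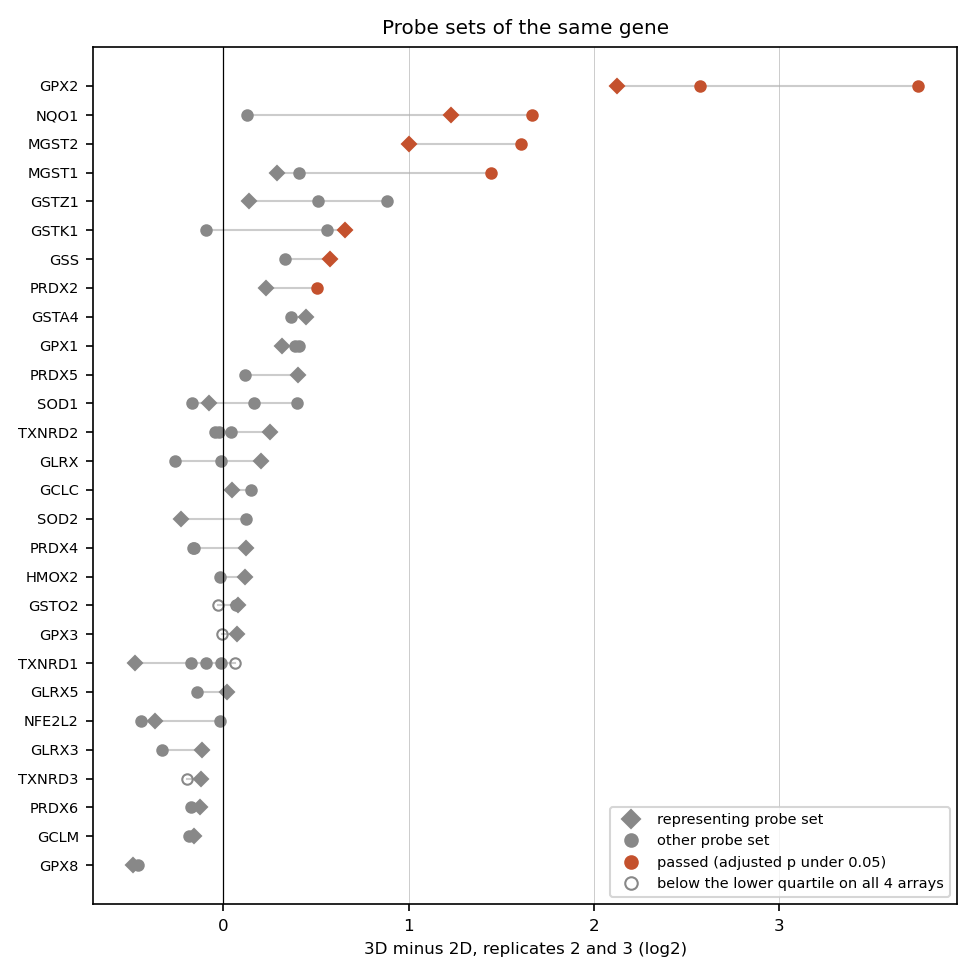
Difference between 3D and 2D on replicates 2 and 3 (log2) for each probe set of the 28 genes with several, with diamonds for the representing probe set, red for those that passed and open circles for those below the lower quartile on all 4 arrays. All 3 GPX2 probe sets lie at 2.125 or higher, while those of TXNRD1 run from -0.475 to 0.065.

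Replicate 1, on its own scale, shared the sign of all 11 probe sets that passed, with differences of 0.46 to 4.04. Among all probe sets that passed in the table the share was 73.9%, and among all representing probe sets that passed 79.8%. Of the 40 genes, 28 were above 0 on replicates 2 and 3, and 28 were above 0 in replicate 1 (44.7% of all genes were). The largest replicate 1 differences of either sign among the representing probe sets belonged to genes that did not pass, TXNRD2 (2.55) and SOD3 (-2.20). Of the 28 genes above 0 on replicates 2 and 3, 15 were higher on 3D replicate 2, the array with the brightest poly-A controls, than on 3D replicate 3 (53.6%, against 57.1% of all genes above 0).

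**Figure D4:**
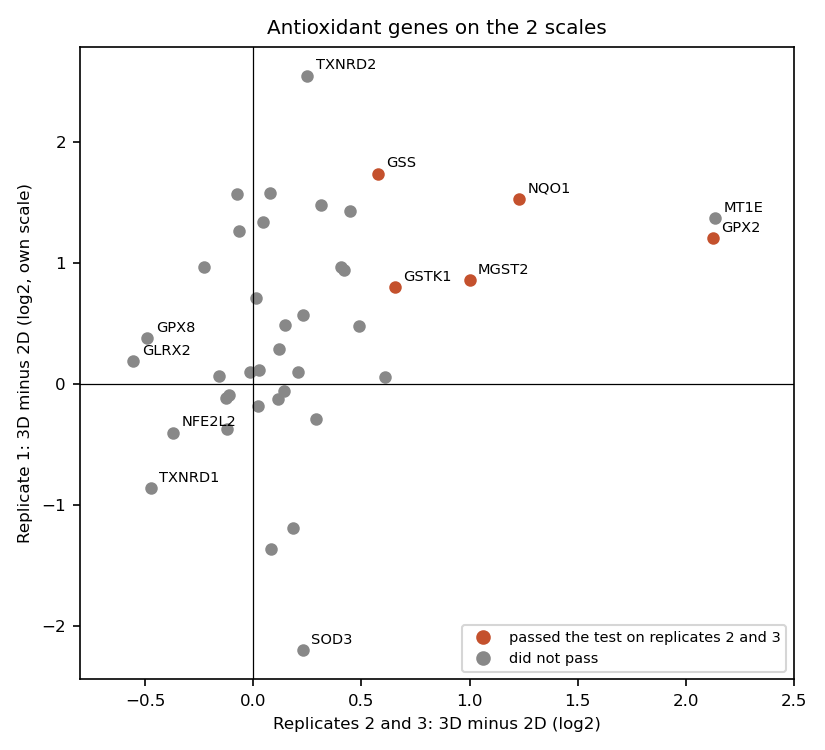
Difference between 3D and 2D (log2) of the 40 genes on replicates 2 and 3 (x axis, n = 2 arrays per group) and in the replicate 1 pair (y axis, own scale, untested), with the 5 genes that passed in red. All 5 lie above 0 on both axes; TXNRD1 and NFE2L2 lie below 0 on both, at -0.475 and -0.37 on the x axis.

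Around these genes, a list of 79 further genes of redox metabolism was followed, of which 69 were measured. The list was chosen with earlier results of these data known, so its counts beside those of all genes are a description only. In it 12 genes passed as higher (against 4.2% of all genes), 1 as lower (against 3.09%) and 56 did not pass, with a median difference of 0.125 beside -0.01 over all genes; in replicate 1 the median was 0.12 beside -0.11. As the mean of their probe sets 8 passed as higher and 2 as lower. In other peroxide and superoxide defence 2 of 7 genes passed as higher and 0 as lower. Catalase, CAT, went from 12.04 and 12.02 to 12.73 on both 3D arrays, a log2 fold change of 0.70 (SE 0.0965, limma adjusted p = 0.0175), and SESN3, a sestrin, rose by 0.725. In thioredoxin and methionine sulfoxide reduction 2 of 10 passed as higher and 0 as lower. MSRB1, a methionine sulfoxide reductase, rose by 1.09 (SE 0.173, limma adjusted p = 0.0246), and the related MSRA (0.28), MSRB2 (0.015) and MSRB3 (-0.15) did not pass. TXNIP, which binds and inhibits thioredoxin, had the largest rise of the list (3.965, SE 0.314, limma adjusted p = 0.0064), while thioredoxin itself, TXN, differed by -0.065 with overlapping groups.

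In cystine uptake and glutathione turnover 2 of 17 genes passed as higher and 0 as lower (against 4.2% and 3.09% of all genes). GGT1, the brush border gamma-glutamyltransferase that starts its breakdown, read 8.62 and 8.99 in 2D and 11.04 and 10.62 in 3D (2.025, SE 0.187, limma adjusted p = 0.00858). DPEP1, the dipeptidase of the next step, went from 7.55 and 7.63 to 8.19 and 8.20 (0.605, limma adjusted p = 0.0268). SLC7A11, the cystine importer and a known target of NRF2 and ATF4, read 7.30 and 8.28 against 6.41 and 7.49; the groups overlapped and it did not pass (-0.84, SE 0.43, limma adjusted p = 0.311), with -2.67 in replicate 1. ANPEP, a membrane aminopeptidase (-0.165), and the gamma-glutamyltransferase relatives GGT5 (0.185) and GGT7 (0.155) did not pass. The glutathione-degrading enzyme CHAC1 differed by -0.575 on its representing probe set and fell on its second one (-1.145, limma adjusted p = 0.0313).

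Of the 7 NADPH-supplying enzymes, 2 passed as higher and 0 as lower. The shares of all genes, here and for the small groups below, were 4.2% and 3.09%. The 2 were the mitochondrial IDH2 (0.59, limma adjusted p = 0.04) and NNT (0.81, limma adjusted p = 0.016), NNT with -0.72 in replicate 1. In haem, iron and metal handling 2 of 9 genes passed as higher and 0 as lower: BLVRB, a biliverdin reductase (0.80, SE 0.105), and FTH1, the ferritin heavy chain (0.935, SE 0.188). BLVRB passed on 1 of its 3 probe sets. SLC39A10, a zinc importer, read 11.78 and 11.18 in 2D and 10.64 and 10.77 in 3D and did not pass (-0.775, limma adjusted p = 0.0795), while its second probe set fell (-0.935, limma adjusted p = 0.0442). Among the 11 partners and regulators of NRF2, 1 passed as higher and 0 as lower. It was TFE3, a transcription factor of lysosomal genes (0.665, limma adjusted p = 0.0478), whose second probe set did not pass (0.015) and whose replicate 1 difference was 0.0. The competing repressor BACH1 did not pass (-0.45, limma adjusted p = 0.0694). The small Maf partner MAFG differed by -0.425 (limma adjusted p = 0.0807). In the remaining 8 detoxification genes, 1 passed in each direction. The glucuronosyltransferase UGT1A6 rose (1.36, SE 0.258, limma adjusted p = 0.0378), with 1.13 in replicate 1. Its other probe sets did not pass (0.355 and 0.945) and gave -1.06 and -0.29 in replicate 1. The aldose reductase AKR1B1 was the gene that fell (-0.57, SE 0.11, limma adjusted p = 0.0395), with -0.805 on its second probe set. As the means of their probe sets IDH2, NNT, DPEP1, TFE3, BLVRB and UGT1A6 did not pass, with limma adjusted p from 0.0532 (IDH2) to 0.115 (TFE3). Among the genes of this list that passed as higher, 3D replicate 2, with the brightest poly-A controls, was often above 3D replicate 3. The gap was 1.02 for TXNIP, 0.83 for UGT1A6, 0.54 for FTH1, 0.49 for MSRB1 and 0.42 for GGT1. It was 0.35 for TFE3, 0.32 for SESN3, 0.2 for IDH2 and 0.12 for BLVRB. NNT (-0.13) and DPEP1 (-0.01) went the other way, and CAT was equal on both.

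**Figure D5:**
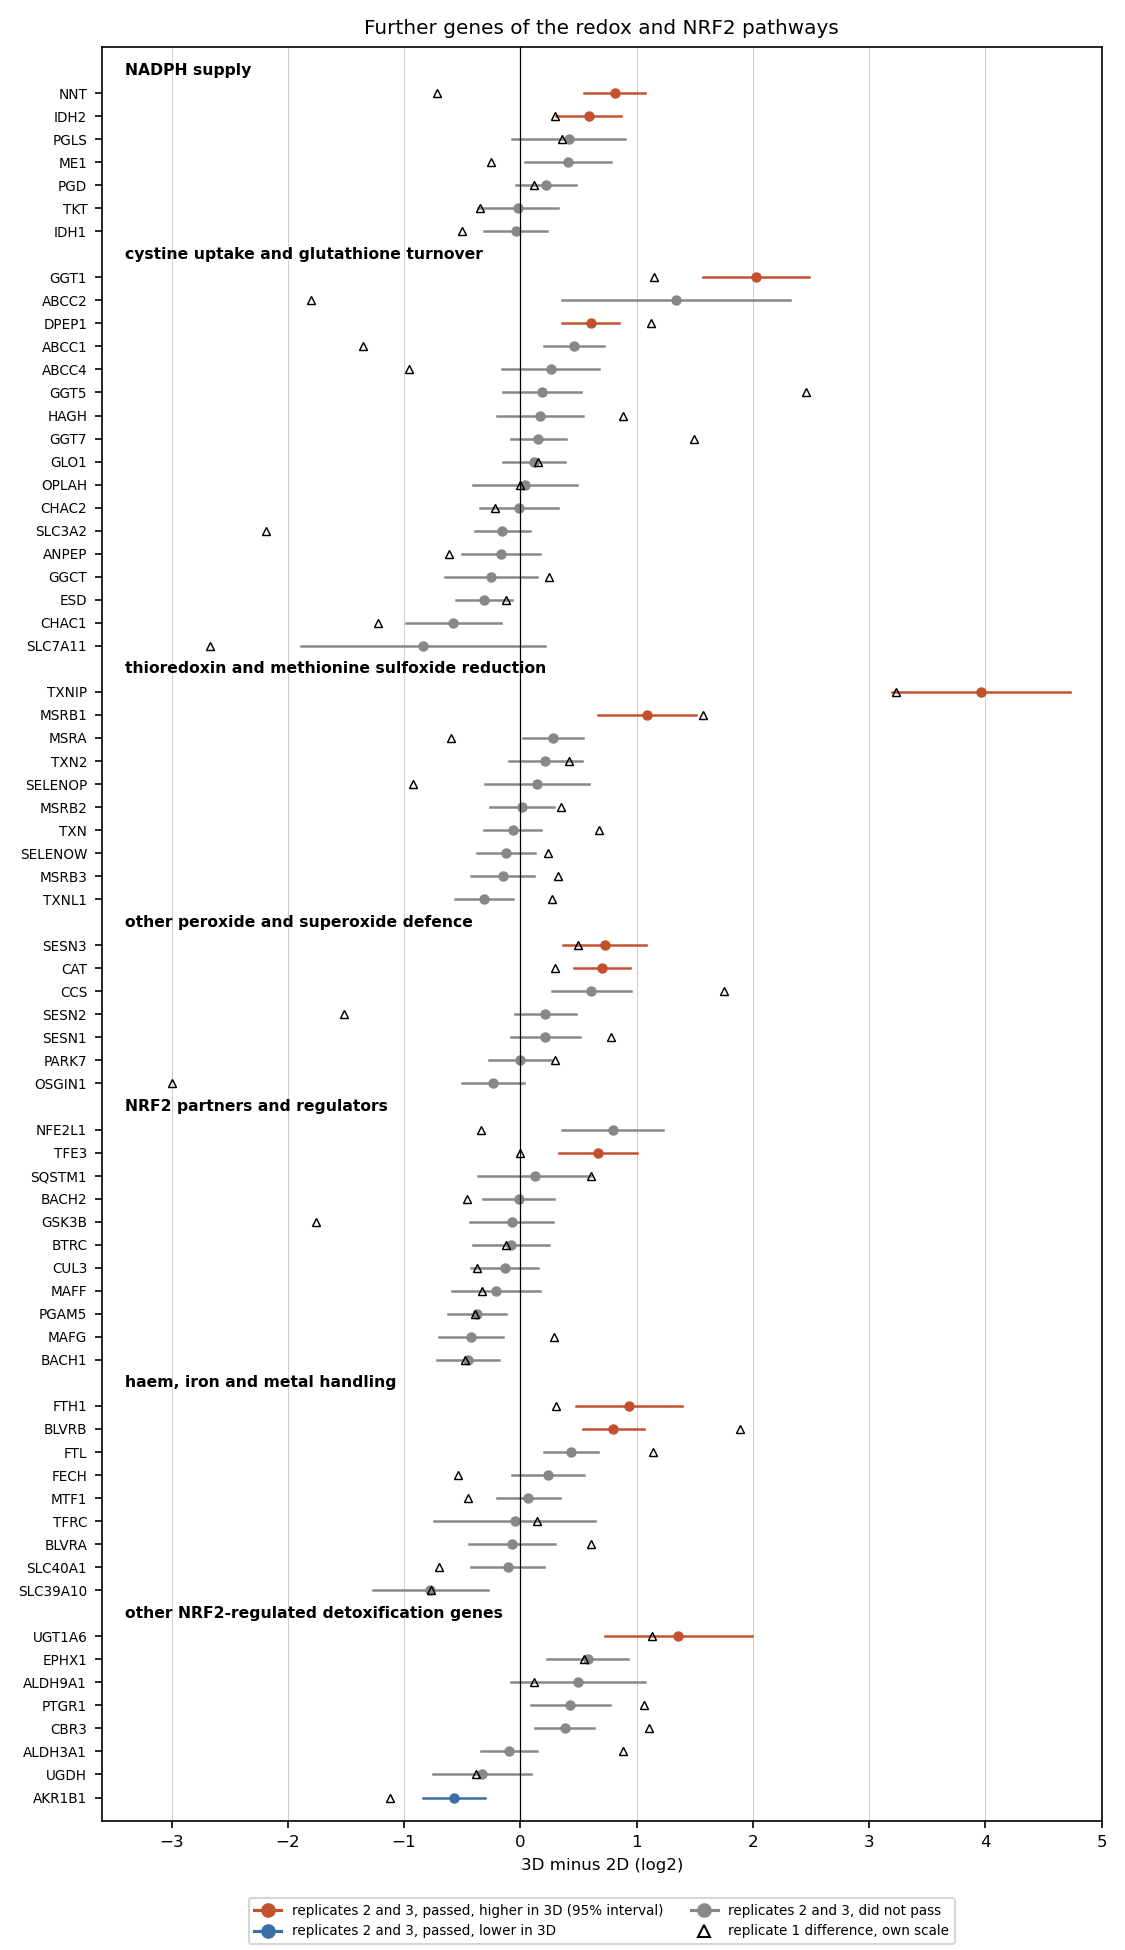
Difference between 3D and 2D (log2) for the 69 measured genes of the further redox and NRF2 list by role, with 95% intervals from limma for replicates 2 and 3 (red, passed higher; blue, passed lower; grey, did not pass) and open triangles for the replicate 1 difference on its own scale. TXNIP (3.965) and GGT1 (2.025) lie farthest to the right, and AKR1B1 (-0.57) is the only gene in blue.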

How the data were processed

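Levels were measured on single-colour Affymetrix canine arrays. Values are log2 levels as deposited by the authors. RMA and limma are named per the submitters' processing notes; their versions, any genome build and the steps behind the replicate 1 columns are all not given in the sources used here. Reading the values as log2 rests on those notes and the range of the values. No detection calls or depth come with the table, so the number of arrays limits the precision.

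Of the 43035 rows, 111 AFFX controls were dropped; 29254 had 1 symbol, 439 several (6 of them with a symbol of the families studied, not used) and 13231 none. By Entrez identifier 80 of the 85 member probe sets matched RefSeq's genes of UU_Cfam_GSD_1.0 (taken as a source of names), and the 5 others belong to PRDX2 and PRDX4. Differences were fitted in R 4.3.3 with limma 3.58.1 (lmFit, then eBayes) on the 4 arrays of replicates 2 and 3, two-sided, with Benjamini-Hochberg adjustment over 42924 probe sets and no filter on level; SE and 95% intervals are those of this fit. Simulated data had the real levels, with the real spreads shuffled among probe sets. In them 10 of 50 probe sets shifted by 1 on the log2 scale were called, 36 of 50 shifted by 2, and 0 of 50 shifted by 0.5. Far fewer probe sets were shifted there than passed in the real data, which makes the adjustment stricter. These shares therefore do not give the power of the real test, in which small differences can still be missed. Joins used pandas 2.3.3 and plots matplotlib 3.10.9.

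The members and lists were chosen with earlier results of these data known. Per-array values are given for genes that passed and for the 2 probe sets of highest mean in each role group. In the further list the genes that passed are named. Other genes named (GPX3, GPX5, GPX7, GSR, MGST1, GSTO2, GSTZ1, PRDX2 to PRDX5, GLRX, GLRX2, TXNRD1 to TXNRD3, SOD2, SOD3, KEAP1, HMOX1, HMOX2, SLC7A11, CHAC1, ANPEP, GGT5, GGT7, MSRA, MSRB2, MSRB3, SLC39A10, BACH1, MAFG and TXN) were picked after their values were seen. Alternatives were a replicate block, all 6 arrays, quantile normalization, median centring, other priors, no dim probe sets, probe sets averaged by gene and leaving out each array.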

Additional observations from a re-analysis of the deposited data

How the results depend on the processing

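Median centring of each array, trend and robust priors and leaving out dim probe sets each kept the calls of NQO1, GPX2, MGST2, GSTK1 and GSS, and no alternative turned the direction of these 5 genes. Averaging probe sets by gene ended the calls of GSTK1 and GSS, gave 2 further-list genes as lower and moved the median difference of the 40 genes from 0.13 to 0.067 and the median replicate 1 difference from 0.43 to 0.492; median centring moved the latter to 0.59. With all 6 arrays in 1 fit, without or with the replicate block, 0 probe sets passed in the table (105 and 2723 at an unadjusted p under 0.05), 0 member probe sets, 0 member genes and 0 further-list genes passed, and the median of the 40 genes was 0.21; with quantile normalization 2 probe sets passed, 0 of them members or of the further list. The cause was not tested, beyond the 2 scales of the columns. Leaving out 1 array left between 0 and 0 calls for all of these counts, with 4683 to 10892 probe sets at an unadjusted p under 0.05, and a median of 0.107 to 0.19; limma adjusted p of the 5 genes was then 0.0921 to 0.435. These fits have 1 residual degree of freedom, and the lone array is assumed to vary like the others.

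With the replicate number as a block on the 4 arrays, 0 probe sets passed (8325 at an unadjusted p under 0.05), so that 0 member probe sets, 0 member genes and 0 further-list genes passed; the limma adjusted p of the 5 genes was 0.153 to 0.167. The block leaves this fit of 4 arrays fewer residual degrees of freedom than the main fit. Its lack of calls therefore does not tell stable from unstable calls. The deviations of same-numbered arrays had a correlation of 0.001 across probe sets, so no pairing shared by the whole table was seen. Whether same-numbered arrays go together in particular genes was not tested, and no label says that the numbers mark a shared day or batch.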
